A study of Mus musculus with 48 samples.

Results

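The 10 genes described here are Ang, Rnase4, Pnp, Pnp2, Osgep, Gm26782, Hnrnpc, Oxa1l, Psmb5 and Gm3375, out of 55450 genes in each of the deposited tables. They were chosen by symbol because the levels of most of them differed between double knockout (DKO) and wild type (WT) libraries in these same data, so their DKO minus WT values are a description, with no test. In GENCODE M21 (mm10), 9 of them lie on chromosome 14 between positions 50870324 and 54618022, a stretch of 3.75 Mb. Gm3375, a processed pseudogene with a sequence close to that of Psmb5, lies on chromosome 7. RNA was sequenced from preadipocytes of inguinal white adipose tissue (iWAT) at days 0, 3, 6 and 9 of an induced conversion into brown-like adipocytes, and from mouse embryonic fibroblasts (MEFs) at days 0, 4, 8 and 12. Each cell type and day had 3 WT and 3 DKO libraries, 48 in all. WT and DKO (Hmgn1-/- and Hmgn2-/-) samples are both labelled C57BL/6. The preadipocytes were primary cultures from 8- to 12-week-old mice, and the MEFs were early-passage cultures from embryos. All cultures of both genotypes were grown to confluence and given insulin, dexamethasone, IBMX, T3 and rosiglitazone, for 4 days (preadipocytes) or 8 days (MEFs), and then insulin and T3 alone. Day 0 samples preceded this treatment. The labels number the replicates 1 to 3 but do not say that these were separate animals or cultures. The study describes its RNA sequencing replicates as biological, without giving for each library the animal or culture it came from, and the p-values below measure the spread between these samples.

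The members belong to several unrelated processes. Ang encodes angiogenin and Rnase4 ribonuclease 4, secreted ribonucleases of the pancreatic ribonuclease family whose genes share promoters. Pnp encodes purine nucleoside phosphorylase, which splits inosine and guanosine into a base and ribose phosphate in purine salvage, and Pnp2 is its neighbouring duplicate. Osgep encodes the catalytic subunit of the KEOPS complex, which makes the t6A modification of tRNAs. Hnrnpc encodes a nuclear protein that packages nascent transcripts. Oxa1l encodes the insertase that places proteins into the mitochondrial inner membrane, and Psmb5 the proteasome subunit with chymotrypsin-like activity. Gm26782 is an antisense long noncoding RNA of unknown role. HMGN1 and HMGN2, which the DKO cells lack, are nucleosome-binding proteins without sequence preference.

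Several members share sequence with another gene, which matters because the counting program RSEM divides the reads between such genes. The transcript of Gm3375 (796 bases) was aligned to that of Psmb5 (899 bases, 3 exons, coding bases 32 to 823). Of 795 aligned bases 787 were identical (98.99%), there was 1 gap base, and the longest identical run was 194 bases. With positions counted from the first base of the Psmb5 transcript, the 8 substitutions from Psmb5 to Gm3375 were G37A, G137A, C328T, C337T, T418A, C448T, T496C and C691A. The 90 bases from 407 to 496 of Psmb5, and the matching bases 377 to 466 of Gm3375, are shown because they hold 3 of the 8 differences (in capitals) by which 50-base reads can be assigned.
Psmb5: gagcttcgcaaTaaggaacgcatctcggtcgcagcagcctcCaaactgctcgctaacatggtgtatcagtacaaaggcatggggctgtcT
Gm3375: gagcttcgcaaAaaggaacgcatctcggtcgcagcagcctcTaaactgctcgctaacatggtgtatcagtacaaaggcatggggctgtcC
Of the 50-base words in the transcripts of Gm3375, 56.22% also occurred in Psmb5, and 46.82% of those of Psmb5 occurred in Gm3375. For the other members, the share of 50-base words found in any other gene was 28.48% for Pnp2, 18.91% for Pnp, 14.5% for Ang, 8.89% for Osgep, 8.28% for Hnrnpc, 7.75% for Rnase4, 7.46% for Gm26782 and 0% for Oxa1l. All shared words of Pnp2 were in Pnp, and the Pnp and Pnp2 transcripts were identical at 92.62% of 1301 aligned bases. Pnp shared 16.8% and Pnp2 24.64% of its words with Gm49342, a gene that overlaps Pnp and is not in the sum of Pnp and Pnp2. Of the words of Ang, 10.68% were in Rnase4, which had far higher levels. The levels of Psmb5, Gm3375, Pnp and Pnp2 are therefore uncertain one by one, and pair sums are given beside most of their results. The level of Ang carries such an uncertainty too, and no sum was made for it.

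Promoter windows around an annotated start (RefSeq, GRCm38.p6) were found for 8 of the 10 members, with none for Pnp2 and Gm3375. Ang and Rnase4 had the same window, chr14:51090827-51091126, plus strand, and Rnase4 had a second one further downstream. The shared window is shown because these neighbours, listed with 1 common start, differed in their DKO minus WT values.
Ang and Rnase4: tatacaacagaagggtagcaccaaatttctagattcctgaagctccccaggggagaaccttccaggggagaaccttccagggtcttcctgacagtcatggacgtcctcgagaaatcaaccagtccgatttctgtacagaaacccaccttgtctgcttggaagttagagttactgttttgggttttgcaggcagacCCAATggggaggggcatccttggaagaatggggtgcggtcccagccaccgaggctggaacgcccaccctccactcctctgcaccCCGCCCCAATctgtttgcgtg
Capitals mark CCAAT and GGGCGG or their reverse complements. The window held 2 CCAAT and 1 GGGCGG, the last of which overlaps a CCAAT, and no TATAAA. On either strand, CCAAT occurred in 37.39%, GGGCGG in 35.63% and TATAAA in 13.62% of all 32817 windows, and none of the 8 distinct member windows held TATAAA.

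Preadipocyte libraries held 19809397 to 36006696 counts and MEF libraries 18962483 to 33083213. The targeted gene Hmgn2 had between 0 and 10 counts in the DKO libraries and at least 744 in the WT libraries. Hmgn1 kept counts in the DKO libraries (1571 to 3493, against 1542 to 6120 in WT libraries). Its mean level was 92.3 CPM in DKO and 150 CPM in WT preadipocytes at day 0, but 77.8 and 78.6 CPM at day 9, where the libraries overlapped. Counts per gene do not resolve deleted exons. Day 0 cells of both types carried preadipocyte and fibroblast markers, and the summed level of 8 adipocyte markers was at most 58.2 CPM (counts scaled to the size of the library) at day 0 and at least 9743 CPM at the last day. The 6 macrophage markers were all detected in both cell types. Their summed level was lower in DKO than in WT preadipocytes at day 6 (1764 to 3648 against 4690 to 7980 CPM) and day 9 (1157 to 2338 against 2385 to 5127 CPM), and lower in DKO than in WT MEFs at day 12 (2364 to 2728 against 3791 to 3839 CPM). The adipocyte markers were higher in DKO preadipocytes at day 3 (1739 to 2507 against 299 to 1167 CPM), day 6 (18611 to 23135 against 12652 to 16059 CPM) and day 9 (22535 to 27945 against 18092 to 18621 CPM), and in DKO MEFs at day 12 (15509 to 16417 against 9743 to 10071 CPM). The 8 preadipocyte and fibroblast markers were higher in DKO preadipocytes at day 0 (14010 to 16307 against 11770 to 12275 CPM). They were lower at day 6 (873 to 1246 against 2254 to 2723 CPM) and in DKO MEFs at day 12 (5037 to 5284 against 7080 to 7402 CPM). The part of these differences in the members' values was not tested, and in bulk samples fewer cells of a type cannot be told apart from less RNA per cell. CPM below are scaled with TMM over the 24 libraries of a cell type, and log2 fold changes come from edgeR's fit of the 6 libraries compared.

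A number of DKO preadipocyte libraries stood apart in several members. DKO replicate 1 at days 0 and 3 lay between the WT libraries and the other two DKO libraries for Gm26782, Pnp2 and Gm3375. At days 6 and 9, DKO replicate 2 lay nearest to the WT libraries for Gm26782 and Pnp2, and replicate 3 farthest. Hmgn2 in the day 0 and day 3 replicate 1 libraries was at 4 and 10 counts, or 0.254% and 0.293% of the WT mean, while Gm26782 was at 61.6% and 60.6% of it. Values without these libraries are given beside the results for these genes.

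Gm26782 (chromosome 14, 50870324 to 50880603, plus strand) was lower in every DKO library than in every WT library of its day, in both cell types. In preadipocytes at day 0 the WT libraries had 9.82, 10.5 and 10.2 CPM and the DKO libraries 6.27, 1.3 and 0.976 CPM (replicates 1 to 3). At day 9 they had 10.2, 11.6 and 11.4 CPM (WT) against 3.17, 4.13 and 1.86 CPM (DKO). In MEFs at day 0 the values were 10.5, 11.4 and 11.5 CPM (WT) against 1.80, 2.03 and 1.25 CPM (DKO). The groups did not overlap, and the DKO libraries spread far more widely in preadipocytes (9.59% to 61.6% of the WT mean over all days) than in MEFs (11.2% to 23.2%). The log2 fold change was between -1.89 and -1.69 at the 4 days in preadipocytes and between -2.72 and -2.23 in MEFs. Without DKO replicate 1 it was -3.13 in place of -1.81 at day 0 and -2.66 in place of -1.69 at day 3. Without DKO replicate 2 it was -2.27 in place of -1.81 at day 6 and -2.17 in place of -1.89 at day 9. The gene overlaps the start of Tep1 on the other strand. Libraries were strand-specific, but whether the counting used the strand is not given in the sources used here.

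Pnp2 (chromosome 14, 50955992 to 50964749, plus strand, within the annotated span of Pnp) showed the lowest DKO levels relative to WT among the protein-coding members in preadipocytes. At day 0 its level was 11.2, 11.9 and 13.0 CPM in WT and 4.86, 0.480 and 0.488 CPM in DKO libraries. At day 6 it was 5.00, 3.54 and 4.88 CPM against 0.776, 1.48 and 0.132 CPM. No DKO library reached a WT library of its day, and the log2 fold change was between -2.91 and -2.57. Without DKO replicate 1 it was -4.62 at day 0 and -4.02 at day 3, and without DKO replicate 2 it was -3.32 at day 6 and -3.79 at day 9. In MEFs Pnp2 was scarce, with 5.33 to 51.6 counts in a WT library and 1.07 to 9.95 counts in a DKO library. It passed the filter on low counts there only at days 4 and 8, and did so through its WT libraries. These had 26.5 to 51.6 counts at day 4 and 19.0 to 24.6 at day 8. DKO and WT libraries did not overlap at these days, but this is tied to the filter and nothing is read from it. At days 0 and 12 the groups overlapped.

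Pnp (chromosome 14, 50931082 to 50965237, plus strand) was lower on average in DKO libraries at each of the 8 comparisons, by less than Pnp2. Its preadipocyte levels at day 9 were 77.4, 76.1 and 65.6 CPM in WT and 38.0, 48.9 and 34.3 CPM in DKO libraries. In MEFs at day 12 they were 124, 120 and 119 CPM against 76.9, 60.1 and 71.0 CPM. The groups did not overlap in 6 of the 8 comparisons, the exceptions being preadipocytes at day 3 and MEFs at day 0, and the log2 fold change ranged from -0.94 to -0.26. When the counts of Pnp and Pnp2 were summed, the log2 fold change ranged from -0.99 (preadipocytes, day 6) to -0.26 (MEFs, day 0), so the sum was also lower in DKO libraries on average. The sum leaves out Gm49342, whose median log2 fold change over the 8 comparisons was -0.66. Pnp2 took 3.64% to 14% of the summed counts in WT preadipocytes, 0.305% to 7.59% in DKO preadipocytes and at most 0.946% in MEFs.

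Ang (chromosome 14, 51091150 to 51102009, plus strand) was lower in every DKO library than in every WT library of its day. In preadipocytes the WT levels were 8.18, 8.62 and 6.89 CPM at day 0, against 5.35, 5.76 and 4.26 CPM in DKO libraries. At day 6 they were 20.6, 21.1 and 23.6 CPM against 8.31, 7.70 and 3.70 CPM. In MEFs at day 12 they were 18.3, 19.1 and 19.7 CPM against 5.92, 6.28 and 7.12 CPM. The difference was not of 1 size: in preadipocytes the log2 fold change was -0.62, -1.32, -1.77 and -1.43 on days 0, 3, 6 and 9, while in MEFs it lay between -1.80 and -1.46.

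Rnase4 (chromosome 14, 51091077 to 51106151, plus strand), which overlaps Ang and shares its promoter window, did not follow it. At day 0 its levels overlapped in preadipocytes (281, 299 and 322 CPM in WT and 270, 395 and 306 CPM in DKO libraries). They overlapped in MEFs at day 0 too (392, 315 and 381 CPM against 341, 187 and 774 CPM). DKO libraries lay below all WT libraries in 3 of the 8 comparisons, preadipocytes at day 6 (828, 679 and 785 CPM against 499, 507 and 379 CPM) and MEFs at days 8 and 12. The log2 fold change was 0.26 in MEFs and 0.11 in preadipocytes at day 0, and -0.76 in preadipocytes at day 6. Both positive values rested on single libraries, being -0.45 without DKO replicate 3 in MEFs and -0.06 without DKO replicate 2 in preadipocytes. A shift of 1 size was thus not seen for Rnase4, with overlap in 5 of the 8 comparisons.

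**Figure D1:**
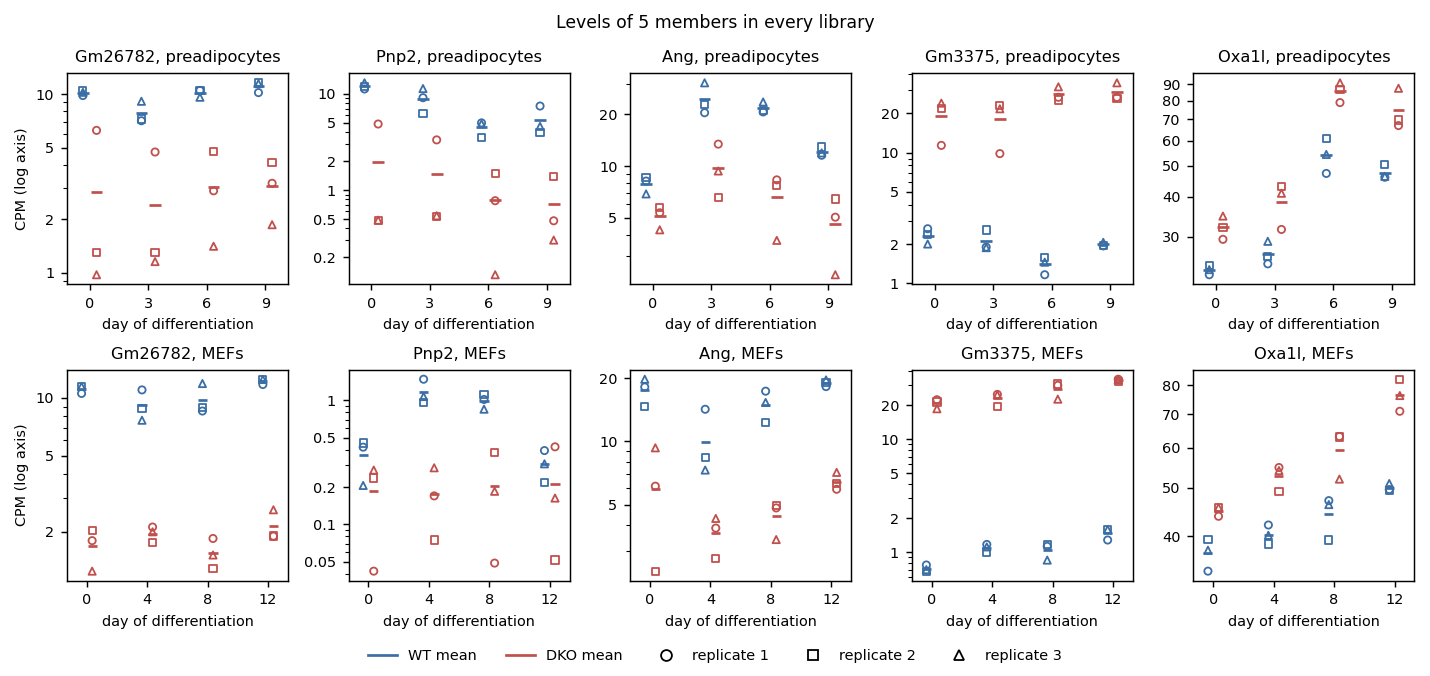
Level of Gm26782, Pnp2, Ang, Gm3375 and Oxa1l in every library, in CPM on a log axis, against the day of differentiation, in preadipocytes (upper row) and MEFs (lower row). Symbols are single libraries and bars the mean of 3 libraries (WT blue, DKO red). DKO replicate 1 (circles) lies between the groups at days 0 and 3 in preadipocytes for Gm26782, with 6.27 and 4.74 CPM, and no DKO library of Oxa1l is as low as a WT library of its day.

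Gm3375 (chromosome 7, 3181093 to 3181888, plus strand) had the largest difference of the 10 genes, with higher levels in DKO libraries at every day in both cell types. Preadipocyte levels at day 0 were 2.62, 2.35 and 2.0 CPM in WT and 11.3, 21.6 and 23.9 CPM in DKO libraries. In MEFs at day 0 they were 0.770, 0.679 and 0.701 CPM against 22.3, 21.3 and 18.6 CPM, and at day 12 they were 1.28, 1.6 and 1.58 CPM against 33.9, 32.5 and 33.5 CPM. No DKO library came near a WT library. The log2 fold change was 3.02, 3.11, 4.28 and 3.82 at days 0, 3, 6 and 9 in preadipocytes, and 4.84, 4.38, 4.70 and 4.45 at days 0, 4, 8 and 12 in MEFs. Without DKO replicate 1 it was 3.29 at day 0 and 3.41 at day 3 in preadipocytes.

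Psmb5 (chromosome 14, 54614119 to 54618022, minus strand) was lower in DKO libraries by a smaller amount. In MEFs at day 12 its levels were 107, 99.2 and 97.5 CPM in WT and 78.4, 81.8 and 80.3 CPM in DKO libraries. In preadipocytes at day 6 they were 80.4, 104 and 91.2 CPM against 78.0, 99.5 and 70.5 CPM, and this was the only comparison of the 8 in which the groups overlapped. The log2 fold change ranged from -0.47 to -0.18.

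The counts of the 2 genes were therefore added. Gm3375 took 1.09% to 1.6% of the summed counts in WT MEFs and 28.4% to 33.6% in DKO MEFs. In preadipocytes it took 1.44% to 3.91% in WT and 13.9% to 31.1% in DKO libraries, where the lowest shares, 13.9% and 14.4%, were those of DKO replicate 1 at days 0 and 3. The sum itself differed little. At day 0 in preadipocytes it was 76.3 ± 3.45 CPM in WT and 78.6 ± 5.48 CPM in DKO libraries (SD, n = 3), and at day 12 in MEFs it was 103 ± 4.98 against 113 ± 1.06 CPM. The log2 fold change of the sum was between -0.0053 and 0.21 over the 8 comparisons, and the DKO and WT libraries overlapped in all except preadipocytes at day 3 and MEFs at day 12, where DKO libraries were higher. The lower level of Psmb5 in DKO libraries did not remain when the pair was counted as 1 gene. How RSEM divided the reads of the pair was not tested.

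**Figure D2:**
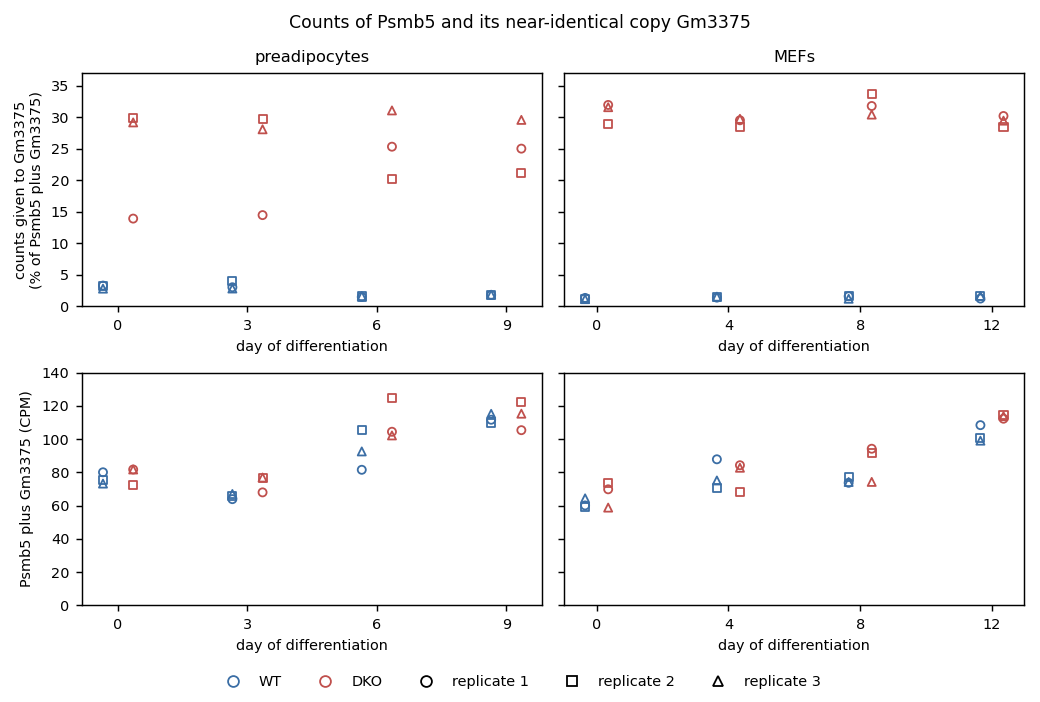
Counts of Psmb5 and Gm3375 in every library against the day of differentiation. The upper panels give the share of the summed counts that went to Gm3375 (at most 3.91% in WT and at least 13.9% in DKO libraries), and the lower panels the summed level in CPM, which overlaps between WT (blue) and DKO (red) libraries in 6 of the 8 comparisons.

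Oxa1l (chromosome 14, 54360834 to 54369673, plus strand) was higher in every DKO library than in every WT library of its day, and it was the only member on chromosome 14 with this direction. In preadipocytes its levels were 22.8, 24.4 and 23.7 CPM in WT and 29.5, 32.1 and 34.8 CPM in DKO libraries at day 0. At day 6 they were 47.4, 60.8 and 54.3 CPM against 78.9, 86.7 and 90.9 CPM. The log2 fold change ranged from 0.44 to 0.62 in preadipocytes and from 0.28 to 0.59 in MEFs, and its transcripts shared no 50-base word with another gene. Its 3′ end overlaps Slc7a7 on the other strand, whose median log2 fold change over the 8 comparisons was 0.58. As for Gm26782, it is not known whether the counting used the strand, and the part of Slc7a7 in the counts of Oxa1l was not tested.

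Hnrnpc (chromosome 14, 52073377 to 52104028, minus strand) had the most even difference of the 10 genes. In preadipocytes at day 6 its levels were 193, 194 and 198 CPM in WT and 160, 169 and 165 CPM in DKO libraries, and in MEFs at day 8 they were 230, 217 and 226 CPM against 188, 192 and 173 CPM. The groups did not overlap in any of the 8 comparisons, and the log2 fold change lay between -0.33 and -0.25. Scaling by library size alone moved it to -0.38 at day 6 in preadipocytes.

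Osgep (chromosome 14, 50906478 to 50924893, minus strand) overlapped between DKO and WT libraries at all 4 days in preadipocytes, with log2 fold changes between -0.10 and -0.07. In MEFs the groups did not overlap at days 0 and 12, and the log2 fold change was between -0.53 and -0.21. At day 12 its levels were 33.6, 34.0 and 33.2 CPM in WT and 26.9, 25.4 and 24.3 CPM in DKO libraries. A constant difference was thus not seen for Osgep.

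**Figure D3:**
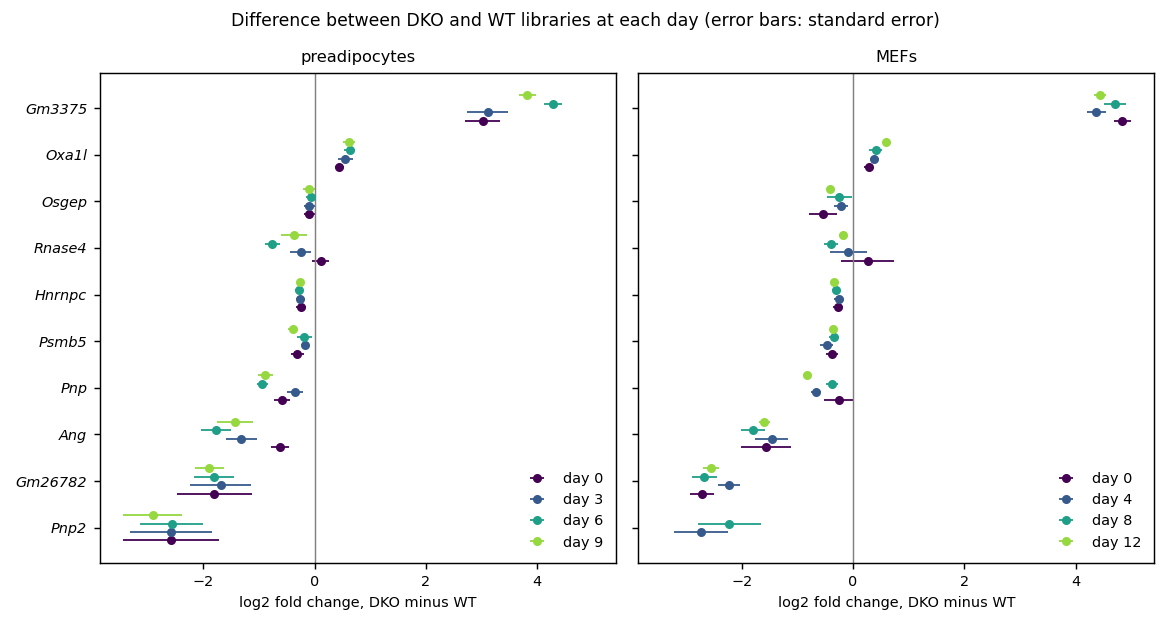
Log2 fold change between DKO and WT libraries for the 10 genes at each day, in preadipocytes (left) and MEFs (right), with bars of 1 standard error. Gm3375 lies between 3.02 and 4.84, Hnrnpc between -0.33 and -0.25, and Rnase4 on both sides of 0. Pnp2 is not shown at days 0 and 12 of MEFs, where it failed the filter on low counts.

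A gene counts as called where edgeR's quasi-likelihood test over all genes tested gave an adjusted p (Benjamini-Hochberg) under 0.05 and the fold change was 1.5 or more. The members were picked on these contrasts, so nothing is read from their counts of calls, which are set beside the share of all tested genes that was called. In preadipocytes, Gm3375 was called at days 0 and 3, 1 of 10 members each (0.218% and 0.337% of all genes). At day 6 the 7 called members were Ang, Rnase4, Pnp, Pnp2, Gm26782, Oxa1l and Gm3375 (11.6% of all genes), and at day 9 the 4 were Pnp, Gm26782, Oxa1l and Gm3375 (1.24%). Without DKO replicate 1, Gm26782 and Pnp2 were called too at days 0 and 3, and without any other single library of those days no member was called. The day 9 count was 6 without DKO replicate 2, where 1460 of all genes were called against 183 with all libraries. It was 1 without DKO replicate 1 or any 1 WT library. In MEFs, Gm26782 and Gm3375 were the 2 called members at day 0 (of 9 tested, 0.102% of all genes), day 4 (of 10, 0.0905%) and day 8 (of 10, 0.0595%). At day 12 the 5 called of 9 tested were Ang, Pnp, Gm26782, Oxa1l and Gm3375 (7.98%). The count was 1 without any 1 of the 3 WT libraries at day 0, without any 1 library except WT replicate 1 at day 4, and without any 1 library at day 8. Osgep, Hnrnpc and Psmb5 were called in none of these 8 comparisons. The median log2 fold change of the members tested lay between -0.52 and -0.26, and that of all genes between -0.013 and 0.012.

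A second description used no threshold on the fold change. Of 13059 genes that passed the filter in all 8 comparisons, 48 (0.368%) had DKO and WT libraries that did not overlap, in the same direction, in all 8, and 24 of these were higher and 24 lower in DKO libraries. The members among them were Ang, Gm26782, Hnrnpc, Oxa1l and Gm3375. Chromosome 14 held 8 of the 48 genes among 448 tested (1.79%), and chromosome 5 held 11 of 840 (1.31%). Within the stretch spanned by the members, 35 genes passed the filter in all 8 comparisons, and 4 of the 8 members among them had libraries that did not overlap. None of the 27 other genes there did. In the 5 Mb on either side, 2 of 93 genes did, and on the rest of the chromosome 2 of 320. The members were picked on these same contrasts. Their part in these counts and in the share of chromosome 14 was thus largely set in advance, and nothing is read from it. The 4 genes outside the stretch were named after their values were seen. Ppp1r3e, which encodes a glycogen-targeting subunit of protein phosphatase 1, lies 0.255 Mb beyond the last member. Its median log2 fold change was -2.23, and its level was 0.373 to 3.08 CPM in DKO and 2.78 to 7.16 CPM in WT libraries. Gm49204, a transcript of unknown kind 1.84 Mb before the first member, had a median of -1.26. Entpd4 and Entpd4b lie 14.7 and 14.9 Mb away, and each had a median of 0.54.

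**Figure D4:**
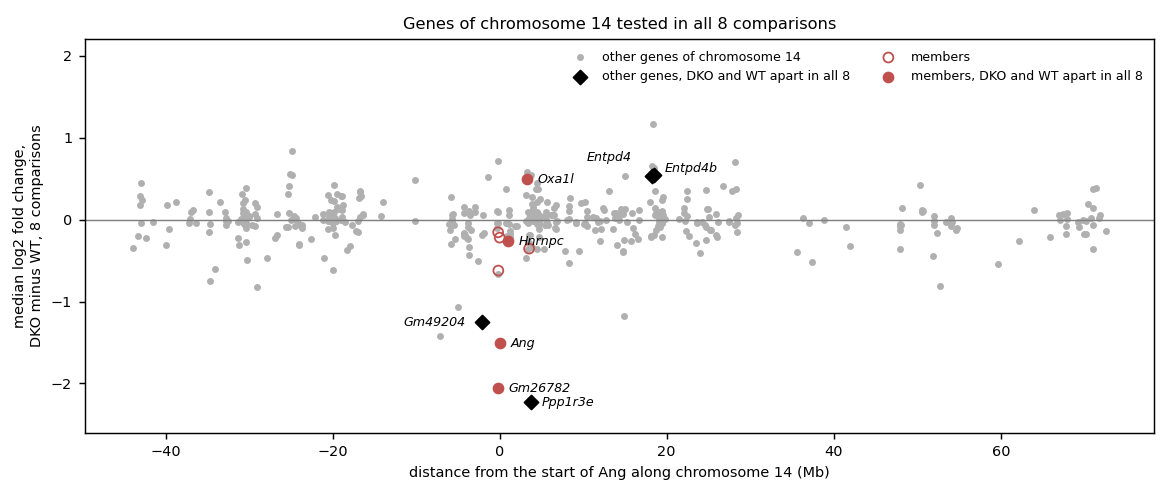
Median log2 fold change between DKO and WT libraries over the 8 comparisons, for the genes of chromosome 14 tested in all of them, against the distance from the start of Ang in Mb. Filled red circles and black diamonds are genes whose DKO and WT libraries did not overlap in any comparison (members and other genes), and open circles are the other members. Most of the 448 genes lie near 0, while Ang, Gm26782, Gm49204 and Ppp1r3e lie between -2.23 and -1.26. Gm8113, Scara3, Gm1821 and Gm21451, whose libraries were not apart in all 8 comparisons, lie at -1.42, -1.18, -1.07 and 1.16.

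The change of the members over differentiation within a genotype was not used to choose them and was tested in the same way. In WT preadipocytes, 6 of 10 members were called between day 0 and day 9, where 53.3% of all tested genes were. Oxa1l had the largest rise of the 10 genes in this contrast, from 23.6 ± 0.783 to 47.6 ± 2.42 CPM (SD, n = 3), or 1.02 ± 0.07 as log2 fold change and standard error (adjusted p = 5.23e-06). Pnp2 fell from 12.1 ± 0.898 to 5.34 ± 1.88 CPM, or -1.17 ± 0.23 on the log2 scale (adjusted p = 0.00204). Ang (0.63 ± 0.12, adjusted p = 0.00186), Rnase4 (0.62 ± 0.08, adjusted p = 0.000134), Osgep (0.59 ± 0.09, adjusted p = 0.000387) and Psmb5 (0.59 ± 0.06, adjusted p = 4.97e-05) rose close to the fold threshold. In these 4 genes and Oxa1l the day 9 libraries were all above the day 0 libraries. The calls of Ang, Osgep and Psmb5 were lost without WT replicate 3 of day 0 (leaving 3 members called), that of Osgep also without replicate 2 and that of Psmb5 without replicate 3 of day 9. The call of Pnp2 held without each library in turn but not in 1 fit over all days (adjusted p = 0.161). With the copies summed, neither pair was called. The log2 fold change was -0.32 ± 0.13 for Pnp plus Pnp2 (adjusted p = 0.0529) and 0.57 ± 0.06 for Psmb5 plus Gm3375 (adjusted p = 6.39e-05). Gm26782, Hnrnpc, Pnp and Gm3375 were not called, with log2 fold changes between -0.24 and 0.13.

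In DKO preadipocytes 2 members were called (55.6% of all genes), Oxa1l (from 32.1 ± 2.69 to 74.6 ± 11.2 CPM, or 1.22 ± 0.13 on the log2 scale, adjusted p = 0.00022) and Osgep (0.60 ± 0.13, adjusted p = 0.00571). Ang had a log2 fold change of -0.16 ± 0.37 and Rnase4 of 0.16 ± 0.27, where both had risen in WT cells, but the difference between the genotypes was not tested. Psmb5 (0.52 ± 0.14, adjusted p = 0.0157) and Pnp (-0.52 ± 0.14, adjusted p = 0.0156) fell short of the fold threshold, and Gm3375 (0.61 ± 0.28, adjusted p = 0.0922) of the p threshold. The result for Gm26782 rested on 1 library, since its log2 fold change was 0.07 ± 0.74 with all libraries and 1.41 without DKO replicate 1 of day 0 (adjusted p = 0.0247). The same library decided the direction for Pnp2, -1.47 with it and 0.57 without it (adjusted p = 0.487). The call of Osgep was lost without DKO replicate 3 of day 0 or of day 9, and without the latter the count of calls was 1. It was also lost with library size scaling (0.34) and limma-voom (0.48), under which Pnp was called instead (-0.78 and -0.66). Pnp was called too without DKO replicate 3 of day 0 or replicate 2 of day 9, and Psmb5 without DKO replicate 1 of day 0, when 4 members were called.

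In MEFs, 9 members passed the filter in this contrast. WT MEFs had 3 called members between day 0 and day 12 (30.1% of all genes). Psmb5 rose from 60.5 ± 2.82 to 101 ± 5.15 CPM (0.74 ± 0.05 on the log2 scale, adjusted p = 2.2e-08), Rnase4 from 362 ± 41.9 to 562 ± 5.77 CPM (0.63 ± 0.08, adjusted p = 8.2e-05) and Gm3375 from 0.717 ± 0.0475 to 1.49 ± 0.179 CPM (1.05 ± 0.28, adjusted p = 0.00496). The call of Rnase4 was lost without WT replicate 2 of day 0, and it was also lost with library size scaling (0.49), limma-voom (0.53) and 1 fit over all days (adjusted p = 0.172). DKO MEFs had 3 called members as well (24.8% of all genes). These were Oxa1l (0.79 ± 0.08, adjusted p = 0.000681), Psmb5 (0.80 ± 0.11, adjusted p = 0.00202) and Gm3375 (0.71 ± 0.10, adjusted p = 0.00251), and day 12 libraries were above day 0 libraries in each of them. Pnp was called too without DKO replicate 1 of day 0. In WT MEFs Oxa1l had a log2 fold change of 0.43 ± 0.06 (adjusted p = 2.92e-05), below the fold threshold. The summed counts of Psmb5 and Gm3375 rose too, by a log2 fold change of 0.75 ± 0.05 in WT (adjusted p = 1.77e-08) and 0.78 ± 0.10 in DKO MEFs (adjusted p = 0.00158). Scaling by library size alone lowered the median log2 fold change of all genes by 0.15 to 0.27 in these 4 contrasts, and Psmb5, Oxa1l and Gm3375 then lost their calls in DKO MEFs, with the direction of each kept.

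**Figure D5:**
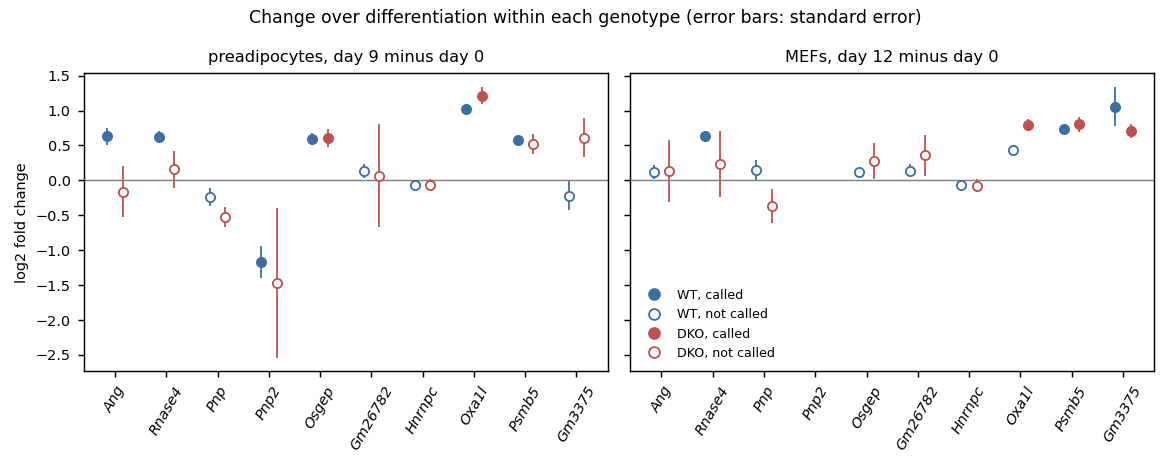
Log2 fold change from day 0 to day 9 in preadipocytes (left) and to day 12 in MEFs (right), in WT (blue) and DKO (red) cells, with bars of 1 standard error. Filled symbols passed both thresholds. Among the called rises are those of Oxa1l in preadipocytes, 1.02 in WT and 1.22 in DKO cells, and of Gm3375 in WT MEFs, 1.05. Pnp2 failed the filter on low counts in MEFs.

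The levels of WT preadipocytes and WT MEFs at day 0 come from separate tables of the same processing, and cell type and table cannot be told apart. In this contrast 4 members were called, where 38.6% of all tested genes were. Pnp2 was higher in preadipocytes (log2 fold change 5.21 ± 0.23, adjusted p = 1.82e-06), as was Gm3375 (1.87 ± 0.23, adjusted p = 0.00027), while Ang (-0.98 ± 0.14, adjusted p = 0.000609) and Osgep (-0.70 ± 0.08, adjusted p = 0.000137) were lower. All 4 calls remained without each library in turn. With the copies summed, neither pair was called. The log2 fold change was 0.03 ± 0.17 for Pnp plus Pnp2 (adjusted p = 0.899) and 0.50 ± 0.06 for Psmb5 plus Gm3375 (adjusted p = 0.000299). Oxa1l (-0.47 ± 0.08, adjusted p = 0.00117) and Psmb5 (0.47 ± 0.06, adjusted p = 0.000392) fell short of the fold threshold. Hnrnpc, Rnase4, Pnp and Gm26782 had log2 fold changes between -0.16 and 0.09.

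Levels can be ordered between genes only per exon length. The length used was that of all annotated exons of a gene together, which can exceed that of the transcript expressed. For Pnp it was 3979 bases, where the transcript aligned above has 2942. The order is thus approximate, and for Psmb5, Gm3375, Pnp, Pnp2 and Ang it also depends on how reads were divided between similar genes. In WT preadipocytes at day 0, Rnase4 was highest with 184 ± 12.7 CPM per kb (SD, n = 3), followed by Psmb5 (82.3 ± 3.51), Hnrnpc (41.2 ± 3.81), Pnp (21.8 ± 3.79), Pnp2 (7.61 ± 0.566), Ang (6.57 ± 0.751), Oxa1l (5.30 ± 0.176), Osgep (3.42 ± 0.224), Gm3375 (2.92 ± 0.389) and Gm26782 (2.49 ± 0.0837). Neighbours in this order overlapped for Pnp2 and Ang, for Osgep and Gm3375 and for Gm3375 and Gm26782. Rnase4 was thus far above Ang per exon length, although both are listed with the same start. In DKO preadipocytes Gm3375 reached 23.8 ± 8.38 CPM per kb.

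Other genes of the members' pathways were taken from lists written with earlier results of these data known. Their calls are to be read beside the share of all genes called. It was 11.6% and 1.24% in preadipocytes at days 6 and 9 and 7.98% in MEFs at day 12. In the other DKO minus WT comparisons it was at most 0.337%, so few or no calls in a short list say little there. None of the 8 KEOPS and t6A genes tested with Osgep and none of the 22 hnRNP genes tested with Hnrnpc was called in any DKO minus WT comparison. Of the 20 genes of mitochondrial membrane insertion and import tested with Oxa1l, 1 was called higher at day 6 in preadipocytes and none in the other 7 comparisons. The median log2 fold change of this list at that day was 0.26, against -0.013 for all genes. Of the 16 proteasome core genes tested with Psmb5, Psmb8, a subunit of the immunoproteasome, was the only one called in at least 2 comparisons. It was lower in DKO preadipocytes at day 6 (4.15 against 8.68 CPM, log2 fold change -1.09 ± 0.25, adjusted p = 0.0196) and day 9 (7.76 against 14.5 CPM, -0.94 ± 0.14, adjusted p = 0.0319). Macrophage markers were also lower there, and their part in this difference was not tested. Of the 21 purine salvage genes tested, 2 were called higher and 1 lower at day 6 and 1 lower at day 9 in preadipocytes, and 1 higher in MEFs at day 12, with list medians of -0.07, -0.11 and 0.02. Among them Nt5e, the ecto-nucleotidase that makes adenosine from AMP outside the cell, was called in 2 comparisons. It was higher in DKO preadipocytes at day 6 (86.9 against 39.2 CPM, 1.12 ± 0.09, adjusted p = 0.000649) and in DKO MEFs at day 12 (39.1 against 21.7 CPM, 0.82 ± 0.11, adjusted p = 0.00019). In the pancreatic ribonuclease list, where at most 7 genes besides the members passed the filter, 2 were called higher in preadipocytes at days 6 and 9 each and 4 in MEFs at day 12. Ear2, an eosinophil-associated ribonuclease, was higher in DKO preadipocytes at day 6 (11.3 against 0.953 CPM, 3.54 ± 0.66, adjusted p = 0.0174) and day 9 (13.0 against 0.520 CPM, 4.62 ± 0.71, adjusted p = 0.0418). In MEFs Ear2 was not called, with log2 fold changes of 0.94, 0.28 and -0.11 at days 4, 8 and 12. Ang2, a relative of Ang that shares 3.82% of its 50-base words, was higher in DKO preadipocytes at day 9 (0.811 against 0.109 CPM, adjusted p = 0.0294 from the same edgeR test), and in MEFs at day 12 it had a mean of 6.14 CPM in DKO libraries and was at 0 in WT libraries.

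The counts of the lists over differentiation are to be read beside the share of all genes called, which was 53.3% and 55.6% in WT and DKO preadipocytes and 30.1% and 24.8% in WT and DKO MEFs. Of the 20 genes listed with Oxa1l, 12 were called higher in WT and 16 in DKO preadipocytes at day 9, and 11 in WT and 16 in DKO MEFs at day 12, with none lower. The median log2 fold changes of this list were 0.88, 1.14, 0.62 and 1.01 in these 4 contrasts, against medians of all genes between -0.0092 and 0.0046. Of the 16 genes listed with Psmb5, 7 and 7 were called higher in WT and DKO preadipocytes with none lower, and 6 and 6 in WT and DKO MEFs with 2 lower in WT. Of the 22 genes listed with Hnrnpc, 5 and 5 were lower in preadipocytes and 1 and 1 in MEFs, with none higher, and Hnrnpc itself was not called. In preadipocytes 9 of the 16 proteasome genes and 17 of the 22 hnRNP genes were thus not called. Of the 8 genes listed with Osgep, 3 and 5 were called higher in preadipocytes and 2 and 4 in MEFs. The 21 genes listed with Pnp and Pnp2 went both ways, 11 higher and 5 lower in WT and 9 higher and 6 lower in DKO preadipocytes. The adipocyte marker levels above were also far higher at the last day in both genotypes, and their part in these changes was not tested.

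As a description, the genes with the most similar levels over the 48 libraries were found for each member by Pearson's r of log2 CPM, over points that share library, day, genotype and table. Gm26782 was most like Ppp1r3e (r = 0.94), then Gm45315 (r = 0.90) and the deleted gene Hmgn2 (r = 0.90), and Ang was also most like Ppp1r3e (r = 0.84). The members were picked on the DKO minus WT contrast. For a member apart between the genotypes, a high r with another such gene, as with Hmgn2, was thus largely set in advance. Nothing is read from it. Pnp was most like Gm49342 (r = 0.92), which overlaps it and shares 16.8% of its 50-base words. Hnrnpc was most like Rps24 (r = 0.88), and both are on chromosome 14. The most similar genes to Oxa1l were Dele1, Prodh and Ivd (r = 0.94, 0.94 and 0.93), none of them on chromosome 14 and each encoding a mitochondrial protein. For the other members the highest r was 0.97 (Gm3375 with AC115117.1), 0.89 (Psmb5 with Cox18), 0.86 (Pnp2 with Gm6368), 0.81 (Rnase4 with Epm2aip1) and 0.77 (Osgep with Sptssa).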

How the data were processed

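Strand-specific paired-end reads of 50 bases were trimmed with cutadapt 1.18, aligned to mm10 with STAR 2.7.0f and counted with RSEM 1.3.0, per the labels and the study's methods. The authors deposited expected counts per gene, without normalization, as 1 table per cell type, and between 5.49% and 7.90% of a library's values were not whole. All 55450 identifiers matched GENCODE M21. Here expected counts were rounded, filtered with filterByExpr, scaled with TMM and fitted with edgeR 4.0.16 (R 4.3.3, robust quasi-likelihood, 6 libraries a comparison, Benjamini-Hochberg adjustment). The study names edgeR in its methods, and limma-voom with quantile normalization in its reporting summary, under which no member was called in preadipocytes at days 0 and 3. The fits had no replicate block, since same-numbered libraries did not vary together in every comparison. The script was tested on simulated data. The alternatives were DESeq2 1.42.0, limma-voom (limma 3.58.1) with quantile normalization, library size scaling, no filter, no fold threshold, a log2 threshold of 1, 1 fit over all days, a replicate block, near-identical copies summed, and leaving out each library.

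The members and lists were chosen with earlier results of these data known. Besides the members, genes were named if all libraries differed in all 8 comparisons within the members' stretch (none did), if a listed gene was called in at least 2 of these, or from the 3 genes most correlated with a member, of which the text gives the first and, for Gm26782 and Oxa1l, all 3. Gm8113, Scara3, Gm1821, Gm21451 and Gm49342 were named after their values were seen. Shared sequence was searched as 50-base words among 141767 GENCODE transcripts.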

Additional observations from a re-analysis of the deposited data

How the results depend on the processing

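Of 1078 log2 fold changes recomputed for the members between DKO and WT libraries, 1058 moved by less than the spread between replicates and 20 by more, and none of a called member changed sign. Calls moved more often. The counts of members below are to be read beside the number of all genes called under the same setting, and nothing is read from them alone. With DESeq2 the members called were 2, 4 and 5 in preadipocytes at days 0 and 3 and MEFs at day 4, in place of 1, 1 and 2. All genes called rose there too, to 145, 408 and 91 in place of 33, 51 and 14. With limma-voom and quantile normalization the members called were 0 and 0 in preadipocytes at days 0 and 3 (34 and 44 of all genes). With 1 fit over all days they were 2 at day 3 (396 of all genes). With the copies summed they were 0 in preadipocytes at days 0 and 3 (32 and 47 of all genes). They were 1 in MEFs at days 0, 4 and 8 (15, 13 and 8 of all genes), and 2 in preadipocytes against MEFs (6076). A log2 threshold of 1 gave 4 and 2 in preadipocytes at days 6 and 9, 3 in MEFs at day 12, 2 and 1 over time in WT and DKO preadipocytes, 1 and 0 in WT and DKO MEFs, and 2 between cell types. All genes called in these comparisons, in the same order, were then 726, 117, 411, 5885, 6532, 2790, 2408 and 4085. No fold threshold gave 9 in MEFs at day 12, where 5062 of 15319 tested genes were called in place of 1222. It gave 4 over time in DKO preadipocytes, where 10785 of 15576 were called in place of 8665. Over time in WT preadipocytes, library size scaling gave 2, limma-voom 3 and 1 fit over all days 2 in place of 6. All genes called there were 8366, 8207 and 8737 in place of 8232. In DKO MEFs library size scaling gave 0 in place of 3, with 4764 of all genes called in place of 3855.

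Same-numbered libraries had correlations between -0.66 and 0.58 after group means were removed. With 3 libraries a group this cannot settle whether the replicate numbers pair the libraries. In preadipocytes at day 3 the correlations were 0.40, 0.02 and 0.47 for replicates 1 to 3, and the replicate block raised all genes called from 51 to 278. With the replicate block the members called were 0 and 2 in preadipocytes at days 0 and 9 (8 and 58 of all genes). They were 1 in MEFs at days 0, 4 and 8 (3, 5 and 2 of all genes). The other counts of members stayed within 1.5 times. Without 1 library each, the counts ranged from 0 to 3 at days 0 and 3, 5 to 7 at day 6 and 1 to 6 at day 9 in preadipocytes, and from 1 to 2 at days 0 and 4, 1 to 1 at day 8 and 4 to 5 at day 12 in MEFs. Over time they ranged from 3 to 6 and 1 to 4 in WT and DKO preadipocytes and from 2 to 3 and 3 to 4 in WT and DKO MEFs, and they were 4 to 4 between cell types. All genes called between DKO and WT moved too without 1 library. They ranged from 720 to 1896 at day 6 and from 20 to 1460 at day 9 in preadipocytes, and from 5 to 529 at day 0 in MEFs.

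A count can stay while its genes change. Psmb5 lost its call over time in WT preadipocytes with DESeq2, Osgep its call between cell types with limma-voom (-0.55), and Gm3375 its call in DKO MEFs with limma-voom (0.54), while Gm3375 was called in DKO preadipocytes in 1 fit over all days and with the replicate block.

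Changes over time or between cell types that reversed were uncalled. With library size scaling, which shifted the median of all genes by up to -0.27 there, they were Gm26782 (-0.033 in WT preadipocytes, -0.17 in DKO preadipocytes, -0.0092 in WT MEFs, -0.059 between cell types), Rnase4 (-0.11 and -0.0073 in DKO preadipocytes and DKO MEFs), Ang (-0.031 and -0.11 in WT and DKO MEFs), Osgep (-0.032 in WT MEFs) and Hnrnpc (-0.016 between cell types). With limma-voom they were Rnase4 (-0.017, DKO preadipocytes), Osgep (-0.00032, WT MEFs) and Hnrnpc (-0.027, between cell types), and with copies summed Pnp (0.027, between cell types). Without 1 library, log2 fold changes that crossed 0 ranged from -0.34 to 1.41 (Gm26782), -2.33 to 0.57 (Pnp2), -0.48 to 0.17 (Ang) and -0.079 to 0.39 (Rnase4) in DKO preadipocytes, from -0.13 to 0.0067 (Hnrnpc) in WT preadipocytes, and from -0.25 to 0.59 (Ang) and -0.13 to 0.92 (Rnase4) in DKO MEFs. The causes were not tested. Depth limits Pnp2 in MEFs most, with at most 9.95 counts in a DKO library.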
